A study of Mus musculus with 23 samples.

Results

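The brakes on the cell cycle and the stress-induced Gadd45 genes were followed in the quadriceps, the large thigh muscle, of mice exposed to a glucocorticoid. The 10 genes were the cyclin-dependent kinase inhibitors Cdkn1a, Cdkn1b and Cdkn2c, the 3 Gadd45 genes Gadd45a, Gadd45b and Gadd45g, the 3 D-type cyclins Ccnd1, Ccnd2 and Ccnd3, and Mdm2. They were taken by symbol from the 55573 genes counted, and all 10 were among the 13049 genes that passed a filter on low counts. RNA of the whole muscle was sequenced from 23 mice labelled C57Bl6 (C57BL/6J in the methods of the study), aged 8 to 10 weeks, with no altered allele named in the labels. Groups of 6 were planned, and the table held 6 vehicle-treated females (Female_VEH), 5 corticosterone-treated females (Female_CORT), 6 vehicle-treated males (Male_VEH) and 6 corticosterone-treated males (Male_CORT). Corticosterone, the main glucocorticoid of mice, was released for 14 days from a pellet under the skin with 50 mg of the hormone and 50 mg of cholesterol. The vehicle pellet held 100 mg of cholesterol. All mice were fasted for 5 h before death. Each mouse is named by the letter of its sex and its number. The p-values given measure the spread between mice within groups, estimated for each gene from all groups together. A p-value or interval for males thus also holds the spread of the females, and the reverse.

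A cell enters a new round of division when a D-type cyclin, bound to Cdk4 or Cdk6, phosphorylates the retinoblastoma protein and releases E2F transcription factors. The INK4 inhibitors, such as p18 (encoded by Cdkn2c), bind Cdk4 and Cdk6, while p21 (Cdkn1a) and p27 (Cdkn1b) bind the complexes of cyclins with their kinases. The Gadd45 proteins are induced by stress and bind p21, proliferating cell nuclear antigen and the kinase Map3k4. Mdm2 is the ubiquitin ligase that marks p53 for degradation and is itself a p53 target, as is Cdkn1a. Muscle fibers no longer divide. In adult muscle these genes are known for their part in the exit of muscle precursors from the cell cycle and, for Cdkn1a and Gadd45a, for their rise in muscle that wastes.

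On GRCm38 (mm10), the inhibitors lie on 3 chromosomes, with Cdkn1a at chr17:29090976-29100727 (plus strand), Cdkn1b at chr6:134920401-134925513 (plus strand) and Cdkn2c at chr4:109660876-109667189 (minus strand). Gadd45a lies at chr6:67035096-67037457 (minus strand), Gadd45b at chr10:80930073-80932204 (plus strand) and Gadd45g at chr13:51846678-51848468 (plus strand). The cyclin genes are Ccnd1 at chr7:144929931-144939925 (minus strand), Ccnd2 at chr6:127125162-127152193 (minus strand) and Ccnd3 at chr17:47505051-47599691 (plus strand), and Mdm2 is at chr10:117688875-117710758 (minus strand). Counts were over exons. No exon of the 10 genes overlapped an exon of another gene on the same strand. Exons of Cdkn1a, Gadd45a, Ccnd1, Ccnd2 and Ccnd3 overlapped a gene on the opposite strand, which the counting kept apart by strand.

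RefSeq promoter sequences on GRCm38.p6, 250 bases before to 50 bases from the start site on, were at hand for 8 of the 10 genes, in 11 windows. The windows shown belong to the gene that changed most with treatment (Cdkn1a), to Gadd45a and to the regulator of p53 (Mdm2). Gadd45a was the only 1 of the 10 genes called, near the threshold, for a response that differed between the sexes. Each window is written 5′ to 3′ on the strand of its gene, with motif matches in capitals.
Cdkn1a, chr17:29090729-29091028, plus strand: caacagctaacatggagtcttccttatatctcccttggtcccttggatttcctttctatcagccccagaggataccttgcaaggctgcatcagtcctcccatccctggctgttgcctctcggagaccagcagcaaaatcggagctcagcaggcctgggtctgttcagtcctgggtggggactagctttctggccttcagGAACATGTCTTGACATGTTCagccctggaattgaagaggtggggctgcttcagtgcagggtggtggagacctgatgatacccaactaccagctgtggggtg
Gadd45a, chr6:67037358-67037657, minus strand: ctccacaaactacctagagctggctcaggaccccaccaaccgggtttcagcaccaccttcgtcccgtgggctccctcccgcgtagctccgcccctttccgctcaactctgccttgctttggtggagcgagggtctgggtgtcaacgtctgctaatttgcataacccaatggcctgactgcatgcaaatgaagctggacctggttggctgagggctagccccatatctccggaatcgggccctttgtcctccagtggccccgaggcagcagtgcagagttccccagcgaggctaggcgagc
Mdm2, chr10:117710709-117711008, minus strand: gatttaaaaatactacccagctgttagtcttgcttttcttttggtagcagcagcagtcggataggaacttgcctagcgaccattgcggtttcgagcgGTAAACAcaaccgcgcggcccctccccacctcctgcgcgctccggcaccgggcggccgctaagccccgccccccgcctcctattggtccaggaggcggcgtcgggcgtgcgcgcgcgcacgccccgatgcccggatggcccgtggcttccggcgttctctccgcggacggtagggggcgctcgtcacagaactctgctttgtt
The capitals in the Cdkn1a window shown are a match to the p53 element, a pair of decamers without a gap. At most 1 mismatch was allowed over both. This element was searched for after the window had been read. It was present in 0.0883% of all 32851 windows and in 1 of the 11 windows of these genes. Cdkn1a has a further window, at chr17:29093519-29093818, in which none of the motifs searched for was found. The capitals in the Mdm2 window are the FoxO element GTAAACA, found in 3.65% of all windows. Of these genes, it was in the window of Mdm2 and in 1 window of Ccnd3. The ATF4 element TGATGNAA was in 3.97% of all windows and in that of Gadd45g. Neither the glucocorticoid receptor element ACANNNTGT (6.85% of all windows) nor the CRE TGACGTCA (1.79%) was in any of the 11 windows. Both strands were searched, and these matches describe letters within 300 bases only.

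Library depth was even, with 20904150 to 21984477 read pairs on genes per mouse. All 10 of the skeletal muscle fiber markers searched for (such as Ckm and Acta1) were present in every mouse, at a summed level of 75735 to 186532 CPM (read pairs on a gene scaled to a common library size). The libraries of the corticosterone-treated females F2, F6 and F10 stood apart in alignment quality. They had 3496, 4618 and 4015 read pairs set aside for low alignment quality, against at most 1856 in any other library. Their Schwann cell markers summed to 256, 195 and 307 CPM, against 98.2 and 94.8 CPM in the other corticosterone-treated females, F4 and F8, and 75.7 to 230 CPM in vehicle-treated females. Hepatocyte markers summed to 2298 CPM in F6, 2974 in F10 and 2791 in the corticosterone-treated male M8, and to 1571 in M9 and 1667 in M12, while the other libraries were between 60.2 and 556 CPM. Results that rest on F2, F6 and F10 are given with and without them, and without them 2 corticosterone-treated females remain.

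Per kilobase of exon, the Gadd45 genes were the highest of the 10 in vehicle-treated muscle and the D-type cyclins the lowest. In vehicle-treated males, Gadd45g was at 38.9 ± 30 CPM per kb (mean ± SD, n = 6) and Gadd45b at 22.9 ± 3.46, neighbours that overlapped widely. Below them stood Gadd45a at 11.8 ± 2.25, Mdm2 at 10.3 ± 1.10 and Cdkn1b at 8.54 ± 0.67, of which Gadd45a and Mdm2 did not differ beyond their spread. The lower end held Cdkn2c at 4.34 ± 0.77, Cdkn1a at 3.31 ± 0.50, Ccnd3 at 2.62 ± 0.18, Ccnd1 at 2.20 ± 0.50 and Ccnd2 at 1.82 ± 0.069 CPM per kb. Ccnd3 and Ccnd1 were within 1 SD of each other there, as were Ccnd1 and Ccnd2. In vehicle-treated females Gadd45a came first at 26.7 ± 8.36 CPM per kb (n = 6), followed by Gadd45b at 20.4 ± 5.42 and Gadd45g at 16.2 ± 9.33, which did not differ beyond their spread. Cdkn1a there stood above Cdkn2c, at 6.83 ± 2.97 against 3.63 ± 1.32. With corticosterone Cdkn1a was first or second in the order. It stood at 71.6 ± 17.0 CPM per kb in treated males, next to Gadd45g at 76.5 ± 26.9, and at 50.7 ± 12.6 in treated females, above Gadd45g at 35.6 ± 17.3. Ccnd1 came last in both treated groups, at 0.316 ± 0.15 CPM per kb in males (n = 6) and 1.14 ± 0.60 in females (n = 5).

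**Figure D1:**
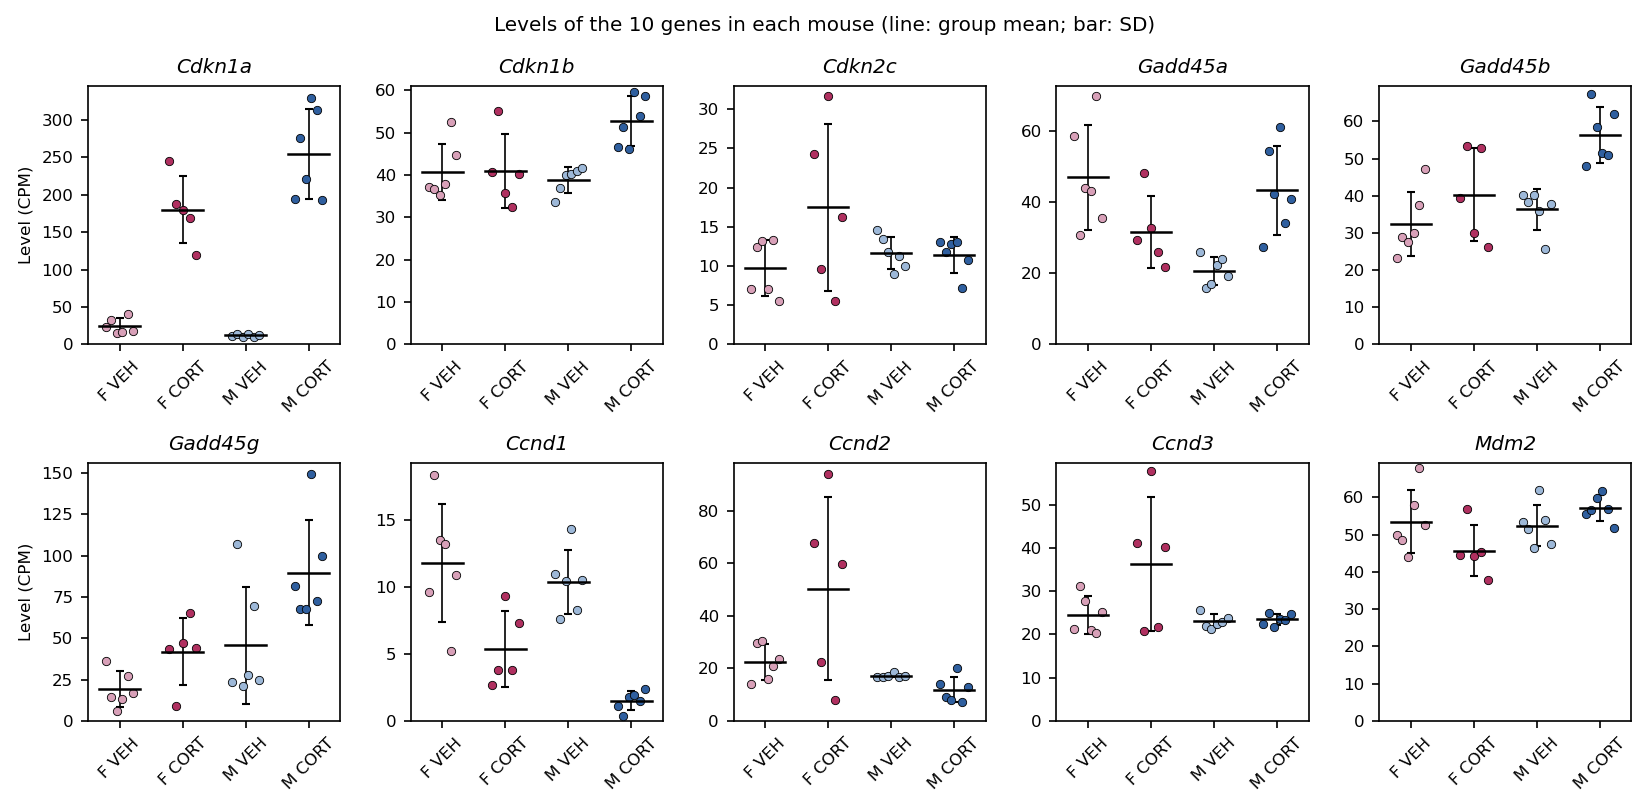
Level of each gene (CPM, vertical axis from 0) in each of the 23 mice by group (F, female; M, male; VEH, vehicle; CORT, corticosterone), with points for mice, lines for group means and bars for SD. The treated mice of both sexes lie between 120.0 and 329 CPM for Cdkn1a and the vehicle-treated mice between 9.46 and 41.1 CPM, while the treated females are spread widely for Cdkn2c, Ccnd2 and Ccnd3.

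The first question was how corticosterone changed these genes in males. Cdkn1a, Cdkn1b, Gadd45a and Gadd45b rose, Ccnd1 fell, and Cdkn2c, Gadd45g, Ccnd2, Ccnd3 and Mdm2 did not pass the test, which asked for an adjusted p under 0.01 from the quasi-likelihood fit of edgeR after Benjamini-Hochberg adjustment over all genes. Thus 4 of 10 were called higher, against 13.2% of all genes tested, and 1 of 10 lower, against 13.1%. The 2 male groups were fully separate, with treatment above, for 4 of 10 genes (10.8% of all genes), and separate with treatment below for 1 of 10 (11.1% of all genes). Their median log2 fold change (log2FC, corticosterone against vehicle) was 0.28, beside -0.02 over all genes tested. In bulk tissue, fewer cells of a type and less RNA per cell cannot be told apart.

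In females, Cdkn1a rose and the other 9 genes did not pass the test. One of 10 was called higher, against 7.40% of all genes tested, and 0 of 10 lower by edgeR, against 6.0%, where 3 of the 10 had a negative log2FC with an unadjusted p under 0.05 and DESeq2 and limma-voom each called 1 lower, Ccnd1. The female groups were fully separate, with treatment above, for 1 of 10 genes (3.38% of all genes), and with treatment below for 0 of 10 (4.34%). The median log2FC of the 10 was 0.44 beside 0.04 over all genes, and it was -0.15 without F2, F6 and F10. With each female left out in turn, 2 genes were called without F4 (Cdkn1a and Ccnd3), 2 without F6 (Cdkn1a and Ccnd1) and 4 without F8 (Cdkn1a, Cdkn2c, Ccnd2 and Ccnd3).

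**Figure D2:**
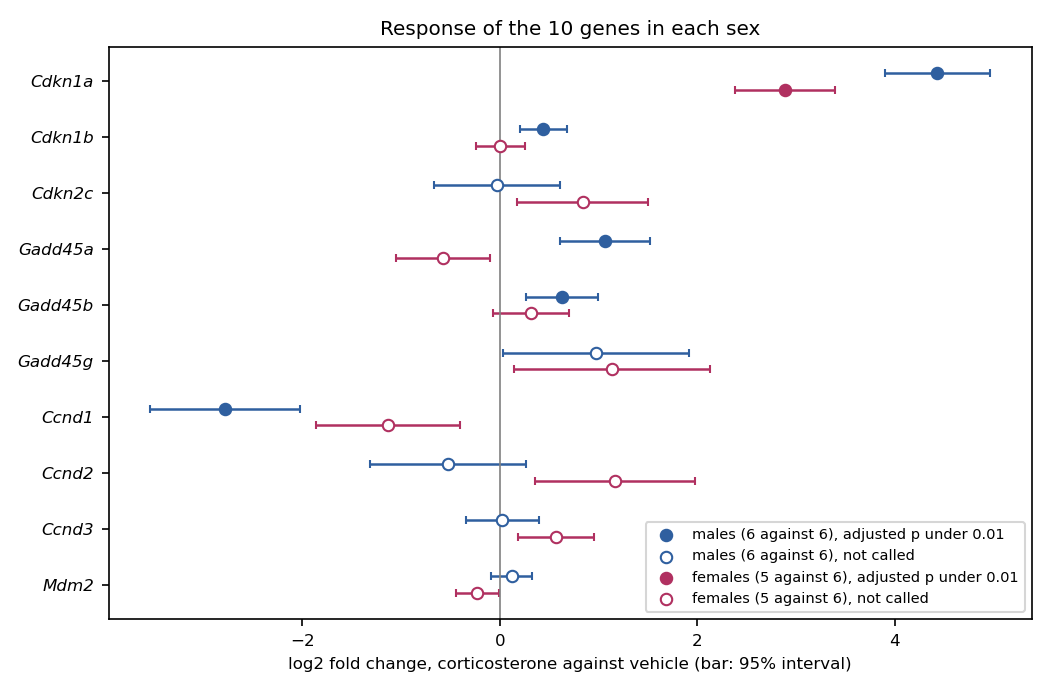
Log2FC of corticosterone against vehicle for the 10 genes (horizontal axis) in males (blue, 6 against 6 mice) and females (red, 5 against 6), with bars for the 95% interval and filled points for an adjusted p under 0.01. Cdkn1a stands furthest to the right in both sexes, at 4.43 and 2.89, and the Gadd45a points of males and females lie on opposite sides of 0, at 1.06 and -0.57.

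Among the inhibitors, Cdkn1a (p21) showed the largest change of the 10 genes in both sexes. In vehicle-treated males its level was 9.46 CPM at the lowest, 11.6 at the median and 14.01 at the highest, and in corticosterone-treated males 192, 248 and 329 CPM. Every treated male was far above the highest vehicle-treated male. The log2FC was 4.43 with a standard error (SE) of 0.26, a 21.6-fold rise with an adjusted p of 3.73e-10. In females the vehicle-treated mice ranged from 14.6 over a median of 20.4 to 41.1 CPM, and the treated mice were at 245 CPM (F2), 187 (F4), 179 (F6), 169 (F8) and 120.0 (F10). No treated female came near a vehicle-treated one, and F9, the highest of the vehicle-treated females, was still well below F10, the lowest of the treated. The rise was 7.43-fold (log2FC 2.89, SE 0.24, adjusted p 6.61e-07). Without F2, F6 and F10 the log2FC was 2.87 (adjusted p 1.80e-05). In all 23 fits that left out 1 mouse it was called in both sexes.

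Cdkn1b encodes p27, an inhibitor of the same family that accumulates in resting cells. Vehicle-treated males ranged from 33.6 over 40.1 to 41.6 CPM (lowest, median, highest) and treated males from 46.2 over 52.7 to 59.7 CPM. The male groups did not overlap, by a margin that was small beside that of Cdkn1a. The rise was 1.36-fold (log2FC 0.44, SE 0.11, adjusted p 0.00422). The call was lost, with adjusted p-values of 0.01002 to 0.0124, when M1, M3, M8 or M12 was left out, at 0.0126 without F10 and M8, and at 0.0102 without a filter on low counts. In females the vehicle-treated mice ranged from 35.3 over 37.6 to 52.6 CPM, and F2, F4, F6, F8 and F10 were at 40.7, 55.2, 35.7, 32.5 and 40.3 CPM. These groups overlapped throughout, with a log2FC near 0 (95% interval -0.25 to 0.25).

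Cdkn2c encodes p18, an INK4 inhibitor of Cdk4 and Cdk6. Its level in males was 8.99, 11.5 and 14.5 CPM (lowest, median, highest) with vehicle and 7.16, 12.3 and 13.1 CPM with corticosterone. The male groups covered the same range (log2FC -0.03, 95% interval -0.66 to 0.61). Vehicle-treated females were at 5.56, 9.77 and 13.2 CPM, and the treated females at 24.3 (F2), 9.59 (F4), 31.6 (F6), 5.51 (F8) and 16.3 CPM (F10). F2, F6 and F10 were above all vehicle-treated females, whereas F4 was within their range and F8 just below it. The log2FC of 0.84 (SE 0.32) did not pass the test (adjusted p 0.0548) and was -0.38 (adjusted p 0.587) without F2, F6 and F10. It was called with limma-voom (1.14, adjusted p 0.00531) and without F8 (1.07, adjusted p 0.00590).

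Of the Gadd45 genes, Gadd45a was the one called for a different response between the sexes. Vehicle-treated males were at 15.97, 20.8 and 25.9 CPM (lowest, median, highest) and treated males at 27.5, 41.7 and 61.3 CPM. All treated males were above all vehicle-treated males, M2 least and M8 most. The rise was 2.09-fold (log2FC 1.06, SE 0.22, adjusted p 0.000626) and was called in all 23 fits that left out 1 mouse. Females started higher, with vehicle-treated mice at 30.7, 43.6 and 70.1 CPM, and the treated mice were at 29.4 (F2), 48.2 (F4), 32.7 (F6), 26.1 (F8) and 21.9 CPM (F10). In all, 4 of these 5 were below the vehicle mean and F4 was just above it, so that the groups overlapped. The female log2FC was -0.57 (SE 0.23) and did not pass the test (adjusted p 0.0681). It was -0.35 (adjusted p 0.616) without F2, F6 and F10.

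The male response of Gadd45a exceeded the female one by 1.64 on the log2 scale (SE 0.32, 95% interval 0.98 to 2.29, adjusted p 0.00830), and it was the only 1 of the 10 genes called for the interaction of sex and treatment, against 0.690% of all genes tested. That call was near the threshold. It was lost, at adjusted p-values of 0.0104 to 0.0177 and log2 differences of 1.49 to 1.71, when any 1 of F1, F7, F9, F11, F2, F6, F10, M1, M3, M5, M7, M9, M11, M4, M6, M8 or M10 was left out. The difference was 1.43 (adjusted p 0.0305) without F10 and M8, and 1.42 (adjusted p 0.0987) without F2, F6 and F10. DESeq2, limma-voom and edgeR with median-of-ratios scaling called it as well, and edgeR without a filter on low counts did not (adjusted p 0.0153). All 6 satellite cell markers were tested, with a median log2FC of -0.58 in males and -0.96 in females. As a sum they ranged higher in treated males, unlike that median, and lower in treated females. Their summed level was 37.5 to 48.9 CPM in vehicle-treated and 44.1 to 63.5 CPM in treated males, and 39.7 to 57.6 CPM and 30.4 to 43.6 CPM in vehicle-treated and treated females. In males 1 of the 6 rose and 1 fell, in females 0 rose and 3 fell, and 1, Cdh15, was called for the interaction. Their part in the Gadd45a result was not tested.

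Gadd45b rose in males. Its vehicle-treated males were at 25.6, 38.1 and 40.3 CPM (lowest, median, highest) and the treated males at 48.1, 55.0 and 67.3 CPM. The groups did not overlap, and M9 stood below the rest of its group, the next of which was at 35.9 CPM. The rise was 1.55-fold (log2FC 0.63, SE 0.18, adjusted p 0.00718), and it fell short of the threshold (adjusted p 0.0114 to 0.0198) when M3, M7, M9, M11, M4, M6 or M12 was left out, and without a filter on low counts (0.0150). In females the vehicle-treated mice were at 23.1, 29.4 and 47.1 CPM and F2, F4, F6, F8 and F10 at 39.3, 53.4, 29.98, 52.8 and 26.1 CPM. F4 and F8 were above all vehicle-treated females and the other 3 were within their range (log2FC 0.32, 95% interval -0.07 to 0.70, adjusted p 0.217). Without F2, F6 and F10 the female log2FC was 0.70 (adjusted p 0.0521), beside 0.64 in males in that fit.

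Gadd45g was the most variable of the 3 from mouse to mouse. Vehicle-treated males were at 21.3, 26.2 and 107 CPM (lowest, median, highest) and treated males at 67.7, 77.0 and 149 CPM. The overlap came from M3 and M9, at 107 and 69.3 CPM, while the other 4 vehicle-treated males were at 27.6 CPM or less. Vehicle-treated females were at 6.17, 15.4 and 36.4 CPM, and the treated females at 43.5 (F2), 9.15 (F4), 47.0 (F6), 65.3 (F8) and 44.0 CPM (F10). F4 was the one treated female within the vehicle range, and the other 4 were above it. The log2FC was 0.98 in males (SE 0.45, adjusted p 0.0914) and 1.14 in females (SE 0.48, adjusted p 0.0821), and neither passed the test.

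Among the D-type cyclins, Ccnd1, the cyclin that growth factors induce most widely, fell in males. Vehicle-treated males were at 7.57, 10.5 and 14.3 CPM (lowest, median, highest) and treated males at 0.332, 1.61 and 2.41 CPM. Every treated male was far below every vehicle-treated male, and M4, the lowest, had 6 read pairs on the gene. The log2FC was -2.78 (SE 0.37), a 6.86-fold fall with an adjusted p of 5.35e-06, and it was called in all 23 fits that left out 1 mouse. Vehicle-treated females were at 5.23, 12.03 and 18.4 CPM and F2, F4, F6, F8 and F10 at 2.64, 3.76, 9.33, 3.79 and 7.31 CPM. All 5 treated females were below the vehicle mean, and the groups overlapped only through F9, at 5.23 CPM. The female log2FC of -1.13 (SE 0.35) did not pass the test (adjusted p 0.0217), and it did with DESeq2 (adjusted p 0.00562), with limma-voom (adjusted p 0.00607) and without F6 (log2FC -1.44, adjusted p 0.00979). Without F2, F6 and F10 the female log2FC was -1.66 (adjusted p 0.0520).

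As a sum, fibroblast markers ranged lower with treatment in both sexes, as Ccnd1 did. Of the 8 markers (such as Col1a1, Pdgfra and Dcn), all at more than 0 in every mouse, 6 fell and 0 rose in males, and 2 fell and 0 rose in females. Their summed level was 1073 to 1577 CPM in vehicle-treated males and 381 to 547 CPM in treated males, and 933 to 2025 CPM and 596 to 1282 CPM in vehicle-treated and treated females. Among treated females the sum was highest in F4, while Ccnd1 was highest in F6. The part of these markers in the Ccnd1 result was not tested.

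Ccnd2 and Ccnd3 encode the other D-type cyclins, of which cyclin D3 is the one kept in differentiated muscle cells. In males, Ccnd2 was at 16.7, 16.9 and 18.5 CPM (lowest, median, highest) with vehicle and 7.31, 11.01 and 20.3 CPM with corticosterone. Of the treated males, 5 of 6 were below all vehicle-treated males and M8 was above them, and the log2FC of -0.52 (SE 0.38) did not pass the test (adjusted p 0.288). In vehicle-treated females Ccnd2 was at 13.9, 22.1 and 30.5 CPM, and in treated females at 67.7 (F2), 22.4 (F4), 94.0 (F6), 7.87 (F8) and 59.8 CPM (F10). F2, F6 and F10 were far above the highest vehicle-treated female and F8 was below the lowest. The log2FC of 1.17 (SE 0.39, adjusted p 0.0309) did not pass the test, and it was -0.58 (adjusted p 0.456) without these 3 libraries and 1.45 (adjusted p 0.00111) without F8. With limma-voom it was called on all mice (1.29, adjusted p 0.00500).

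Ccnd3 was high in the same treated females, by less. Males were at 21.2, 22.6 and 25.7 CPM (lowest, median, highest) with vehicle and 21.7, 23.4 and 25.0 CPM with corticosterone, a log2FC of 0.03 (95% interval -0.34 to 0.40). Vehicle-treated females were at 20.4, 23.3 and 31.1 CPM, and F2, F4, F6, F8 and F10 at 41.2, 20.7, 57.9, 21.8 and 40.3 CPM. F2, F6 and F10 were again above all vehicle-treated females, with F4 and F8 inside their range. The female log2FC of 0.57 (SE 0.19, adjusted p 0.0267) did not pass the test and was -0.22 (adjusted p 0.420) without F2, F6 and F10. It was called without F4 (0.72, adjusted p 0.00262) or without F8 (0.71, adjusted p 0.00366), and with limma-voom (0.66, adjusted p 0.00205). Macrophage markers summed to 170, 246 and 299 CPM in F2, F6 and F10, to 164 and 94.4 CPM in F4 and F8 and to between 71.9 and 154 CPM in vehicle-treated females. The Schwann cell markers given above were higher in F2, F6 and F10 than in F4 and F8. Adipocyte markers summed to 5876, 10245 and 4846 CPM in F2, F6 and F10 and to 5923 and 710 CPM in F4 and F8. In vehicle-treated females they were between 1115 and 8288 CPM. The median log2FC of the 8 adipocyte markers was 2.13 in females, where 1 was called higher, and -0.17 in males. The part of these markers in the values of Cdkn2c, Ccnd2 and Ccnd3 was not tested.

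Mdm2 passed the test in neither sex, and its levels lay close together in all groups. It was at 46.4, 52.4 and 61.9 CPM in vehicle-treated males (lowest, median, highest), at 51.7, 56.8 and 61.7 CPM in treated males and at 43.9, 51.2 and 67.8 CPM in vehicle-treated females. Treated females were at 44.4 (F2), 56.8 (F4), 44.1 (F6), 45.4 (F8) and 37.7 CPM (F10). The groups overlapped in both sexes, with a log2FC of 0.12 in males (95% interval -0.08 to 0.33) and -0.23 in females (95% interval -0.44 to -0.01, adjusted p 0.114).

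**Figure D3:**
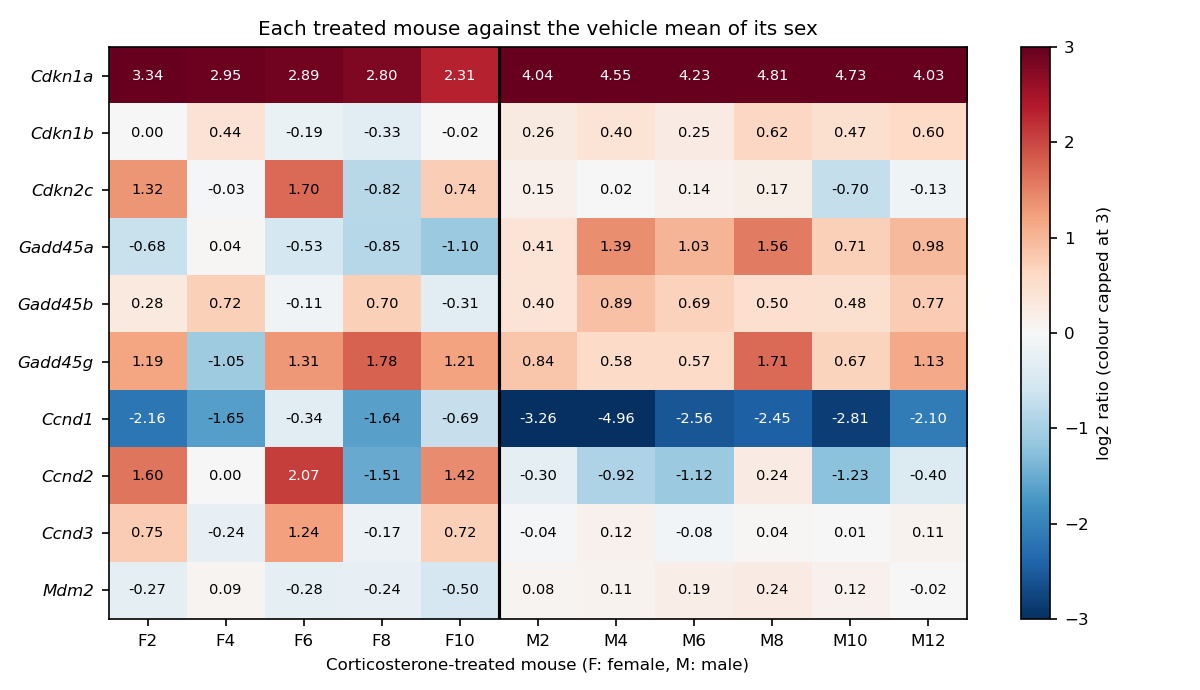
Log2 ratio of each corticosterone-treated mouse (columns, 5 females and 6 males) to the mean level of the vehicle-treated mice of its sex, for the 10 genes (rows), with red for higher and blue for lower. Cdkn1a is higher in all 11 mice (2.31 to 4.81) and Ccnd1 lower in all 11, while Cdkn2c, Ccnd2 and Ccnd3 are higher in F2, F6 and F10 (0.72 to 2.07) and not in F4 or F8.

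Besides Gadd45a, edgeR called no response of the 10 genes different between the sexes. The male rise of Cdkn1a exceeded the female one by 1.54 (log2, SE 0.33, adjusted p 0.0114). DESeq2 (adjusted p 0.000283) and edgeR with median-of-ratios scaling (adjusted p 0.00995) called this difference. So did edgeR without F5 (adjusted p 0.00892), F4 (0.00862) or F8 (0.00606), while with other single mice left out the adjusted p was up to 0.0247. The Cdkn1a difference was 1.36 (adjusted p 0.0403) without F10 and M8, and 1.57 (adjusted p 0.0738) without F2, F6 and F10. For Ccnd1 the male minus female response was -1.65 (SE 0.49, adjusted p 0.0358) and for Ccnd2 -1.69 (SE 0.55, adjusted p 0.0453). The Ccnd1 difference was -1.12 (adjusted p 0.281) without F2, F6 and F10. The Ccnd2 difference was 0.06 without F2, F6 and F10, and it was called without F8 (-1.97, adjusted p 0.00366) and with limma-voom on all mice (-2.02, adjusted p 0.00625).

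The sexes were then compared within a treatment. Whether their samples were handled together is not given in the sources used here, so that a batch of samples and sex cannot be told apart in these values, and they share their vehicle-treated mice with the responses above. Among vehicle-treated mice, 1 of the 10 genes was called, against 0.958% of all genes tested. Gadd45a was lower in males than in females (log2FC of males against females -1.18, SE 0.22, adjusted p 0.00321), and no vehicle-treated male reached the lowest vehicle-treated female. The call was lost (adjusted p 0.0101 to 0.0119) without F1, F9, M3, M5 or M11. Cdkn1a was lower too, also with no overlap (-1.04, SE 0.23), at an adjusted p of 0.0141 that fell to 0.00637 without F5 and to 0.00980 without F7, and DESeq2 called it. Gadd45g was higher in every vehicle-treated male than the female mean, by a log2FC of 1.26 (SE 0.46) that did not pass the test (adjusted p 0.190).

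Among corticosterone-treated mice 2 of the 10 genes were called, which is near the 23.3% of all genes tested. Over all genes these were 3043 calls, which dropped to 1382 without F10 and M8 and to 213 of 12882 genes without F2, F6 and F10. Ccnd1 was lower in males (log2FC of males against females -1.84, SE 0.37, adjusted p 0.000868), and all 6 males were below all 5 females. Of the 8 fibroblast markers, 7 were lower in treated males than in treated females, and their part in this result was not tested. Ccnd2 was lower in males as well (-2.08, SE 0.40, adjusted p 0.000621), though F8 was within the male range. Neither was called without F2, F6 and F10, with -1.31 for Ccnd1 (adjusted p 0.0658) and -0.33 for Ccnd2 (adjusted p 0.612). Cdkn1b, Ccnd3 and Mdm2 (0.37, -0.63 and 0.32, adjusted p 0.0195, 0.0105 and 0.0195) were not called. All of them were called with DESeq2 and without F4, Ccnd3 and Mdm2 also with limma-voom, and Ccnd3 also without F3 or F8, while Ccnd3 was at 0.16 without F2, F6 and F10. In treated mice Gadd45a was at 43.4 CPM on average in males and 31.7 CPM in females, a log2FC of 0.46 that did not pass the test (95% interval -0.02 to 0.93, adjusted p 0.118). Cdkn1a was at 254 CPM on average in treated males and 180 CPM in treated females, and these groups overlapped. Its log2FC of 0.50 did not pass the test either (95% interval 0.01 to 0.98, adjusted p 0.0964).

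The spread between mice of a group was uneven among these genes. The median SD of log2 CPM over the 10 genes was 0.45 in vehicle-treated females, 0.55 in treated females, 0.23 in vehicle-treated males and 0.34 in treated males. Over all genes tested it was 0.21, 0.28, 0.20 and 0.21 in the same order. Cdkn1b, Ccnd3 and Mdm2 were below that all-gene median in both male groups, as were Ccnd2 in vehicle-treated males and Gadd45b in treated males. As deviations of log2 CPM from the group means over 23 mice of shared libraries, Cdkn2c, Ccnd2 and Ccnd3 varied together, with a Pearson correlation of 0.82 for Ccnd2 with Ccnd3, 0.82 for Cdkn2c with Ccnd2 and 0.73 for Cdkn2c with Ccnd3. Those values were 0.51, 0.47 and 0.26 over the 18 mice outside the treated females. Mdm2 varied with Gadd45a (0.62) and with Cdkn1a (0.53), and over these 18 mice with correlations of 0.51 and 0.54. It varied about as much with Cdkn1b (0.51) and against Ccnd3 (-0.50), with 0.44 and -0.52 over these 18 mice.

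By the same measure, the gene most like Cdkn1a of all genes tested was Trim63 (0.74), which encodes the muscle ubiquitin ligase MuRF1, followed by Arid5b (0.73). Gadd45g was most like Cebpd (0.87), a transcription factor gene, and Ddit4 (0.84), an inhibitor of the mTOR pathway. Cdkn1b was most like Zranb1 (0.88) and Hbp1 (0.86), Gadd45a like Mknk1 (0.88) and Cnot4 (0.88), Gadd45b like Polr3a (0.77) and Trim13 (0.76), and Mdm2 like Zfp652 (0.87) and Vcp (0.87). The genes whose high values lay in F2, F6 and F10 had close neighbours, Cdkn2c in Tspo (0.95) and Acbd4 (0.93), Ccnd2 in Ptges (0.95) and H2-D1 (0.94), and Ccnd3 in Papss1 (0.95) and Pttg1ip (0.93). Ccnd1 was most like Aldh18a1 (0.89) and Armcx2 (0.87).

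Other genes of these pathways were taken from lists, and the 4 leading genes of each are named. The median log2FC over all genes tested, against which the medians of the lists can be read, was -0.02 in males and 0.04 in females. The counts of genes called stand beside shares of all genes tested of 13.2% higher and 13.1% lower in males and 7.40% higher and 6.0% lower in females. Of the other CDK inhibitors, 3 of 4 were tested, with medians of -0.27 in males and -0.08 in females. In males 0 rose and 1 fell, and in females 1 rose and 1 fell. Cdkn2d, the INK4 inhibitor p19, fell in both sexes (log2FC -0.27 in males, adjusted p 0.00779, and -0.39 in females, adjusted p 0.00115). Cdkn2b, the INK4 inhibitor p15, rose in females (1.31, SE 0.31, adjusted p 0.00370) and was at -0.57 in males (adjusted p 0.132), and its female value was -0.11 without F2, F6 and F10. Cdkn1c, or p57, passed in neither sex (-0.21 and -0.08).

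Of the 12 G1 kinase, pocket protein and E2F genes tested, 2 rose and 3 fell in males (median -0.19), and 1 rose and 0 fell in females (median 0.05). E2f4, a repressive E2F, and its partner Rbl2 (p130) rose in males by 0.54 (SE 0.09, adjusted p 0.000109) and 0.63 (SE 0.13, adjusted p 0.000629). E2f1, an activating E2F, fell by 1.83 (SE 0.36, adjusted p 0.000384) and cyclin E2 (Ccne2) by 0.76 (SE 0.17, adjusted p 0.00164) on the log2 scale. The E2f1 levels were very low, at 0.94 ± 0.23 CPM in vehicle-treated males and 0.26 ± 0.15 CPM in treated males. In females these 4 genes were at 0.16, 0.01, 0.03 and -0.51 in the same order and did not pass. The other genes called, named after their values were seen, were the kinase gene Cdk2, which fell in males (-0.78, adjusted p 0.00264), and Rb1, the retinoblastoma gene, which rose in females (0.60, adjusted p 0.00209).

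Proliferation markers were rare in this muscle, and 10 of the 18 passed the filter on low counts. Of the 10, 4 rose and 2 fell in males (median 0.41) and 3 rose and 0 fell in females (median 0.29). Those that rose in both sexes were subunits of the helicase that licenses replication origins, Mcm4 (log2FC 0.68 in males and 0.57 in females), Mcm5 (0.76 and 1.05) and Mcm7 (0.69 and 0.58). Pcna, the sliding clamp of DNA polymerase, rose in males (0.43, adjusted p 0.000569) and was at 0.29 in females (adjusted p 0.0240). The genes that fell in males, named after their values were seen, were Mki67 and Top2a, markers of dividing cells (-2.91, adjusted p 0.00288, and -2.40, adjusted p 0.00707), with -0.45 and -0.36 in females. Mki67 had no read pairs in some of the mice. The mitotic genes Ccna2, Ccnb1, Ccnb2, Cdk1, Aurkb, Birc5 and Bub1 were among the 8 below the filter.

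Of the 15 p53 pathway genes tested, 4 rose and 2 fell in males (median 0.28) and 3 rose and 0 fell in females (median 0.08). Trp53inp1, a p53 cofactor, and Btg2, an antiproliferative gene, rose in both sexes, the former by 1.39 and 1.35 and the latter by 1.56 and 0.84 (log2FC in males and females). Bbc3, which encodes the cell death activator Puma, rose in females (0.93, adjusted p 0.00378) and was at 0.50 in males (adjusted p 0.0679). The other genes called in males, named after their values were seen, were Rrm2b (0.28), a subunit of the p53-induced ribonucleotide reductase, which rose, and Phlda3 (-0.44) and Zmat3 (-0.40), which fell. Sesn1, a stress-responsive inhibitor of mTORC1, rose in males from 30.5 ± 2.86 to 94.8 ± 24.3 CPM (n = 6 each, log2FC 1.64, SE 0.17, adjusted p 3.90e-07) and was at 58.3 ± 18.1 and 59.4 ± 6.52 CPM in vehicle-treated and treated females. Its response was called different between the sexes (male minus female 1.61, SE 0.25, adjusted p 0.00385), as that of Gadd45a was. With vehicle, Sesn1 too was lower in males than in females (-0.93, adjusted p 0.00255). The difference in response was 1.59 (adjusted p 0.0323) without F2, F6 and F10.

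Of the 8 genes of Gadd45 partners and stress kinases, which include the p38 and JNK cascades downstream of Map3k4, 1 rose and 2 fell in males (median -0.07). In females 0 rose and 2 fell (median -0.31). Mapk8 (JNK1) fell in both sexes (-0.35 in males, adjusted p 0.00928, and -0.50 in females, adjusted p 0.00203). Map2k7, which activates JNK, fell in females (-0.60, adjusted p 4.87e-05) and was at -0.22 in males (adjusted p 0.0351). Mapk14 (p38 alpha) rose in males (0.43, adjusted p 0.00865) and Map2k6, which activates p38, fell there (-0.94, adjusted p 0.00240), with female values of 0.05 and -0.80 that did not pass.

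In the ATF4 response, a stress pathway that can induce Cdkn1a and Gadd45 genes, 1 of 9 genes tested rose and 1 fell in males (median 0.33), and 3 rose and 0 fell in females (median 0.92). Ddit4 rose in both sexes, from 17.4 ± 16.7 to 179 ± 57.2 CPM in males (log2FC 3.37, SE 0.55, adjusted p 5.99e-05) and from 17.5 ± 7.0 to 82.5 ± 52.98 CPM in females (2.24, SE 0.54, adjusted p 0.00444). Ddit3 (CHOP) fell in males by 0.997 on the log2 scale (adjusted p 0.00786) and was near 0 in females (95% interval -0.60 to 0.61). Trib3 and Psat1 rose in females (1.12, adjusted p 0.00444, and 1.89, adjusted p 0.00914), with male values of 0.33 and 0.51 that did not pass. Without F2, F6 and F10 the female values were 0.46 for Trib3 (adjusted p 0.502) and -0.06 for Psat1 (adjusted p 0.973), and that of Ddit4 was 1.47 (adjusted p 0.240).

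Of 8 denervation markers tested, 2 rose and 0 fell in males (median 0.36) and 1 rose and 0 fell in females (median -0.03). Musk, the kinase that organizes the neuromuscular junction, rose in both sexes (1.24, adjusted p 0.000334, and 1.03, adjusted p 0.00484). Myog, a myogenic transcription factor that rises when muscle loses its nerve, rose in males (1.76, adjusted p 5.05e-05) and was at 0.73 in females (adjusted p 0.0600). Hdac4 (-0.69 and -0.59) and Myh8 (1.01 and 0.80) passed in neither sex.

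Without F2, F6 and F10, which leaves 2 treated females, edgeR called 0 genes of any of these lists in females, while 1 to 5 genes of each list had an unadjusted p under 0.05. Among all genes the calls in females dropped from 1748 to 129 in that fit. The log2FC of Mcm4 was then 0.55, that of Trp53inp1 0.88 and that of Map2k7 -0.47, with their directions kept.

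**Figure D4:**
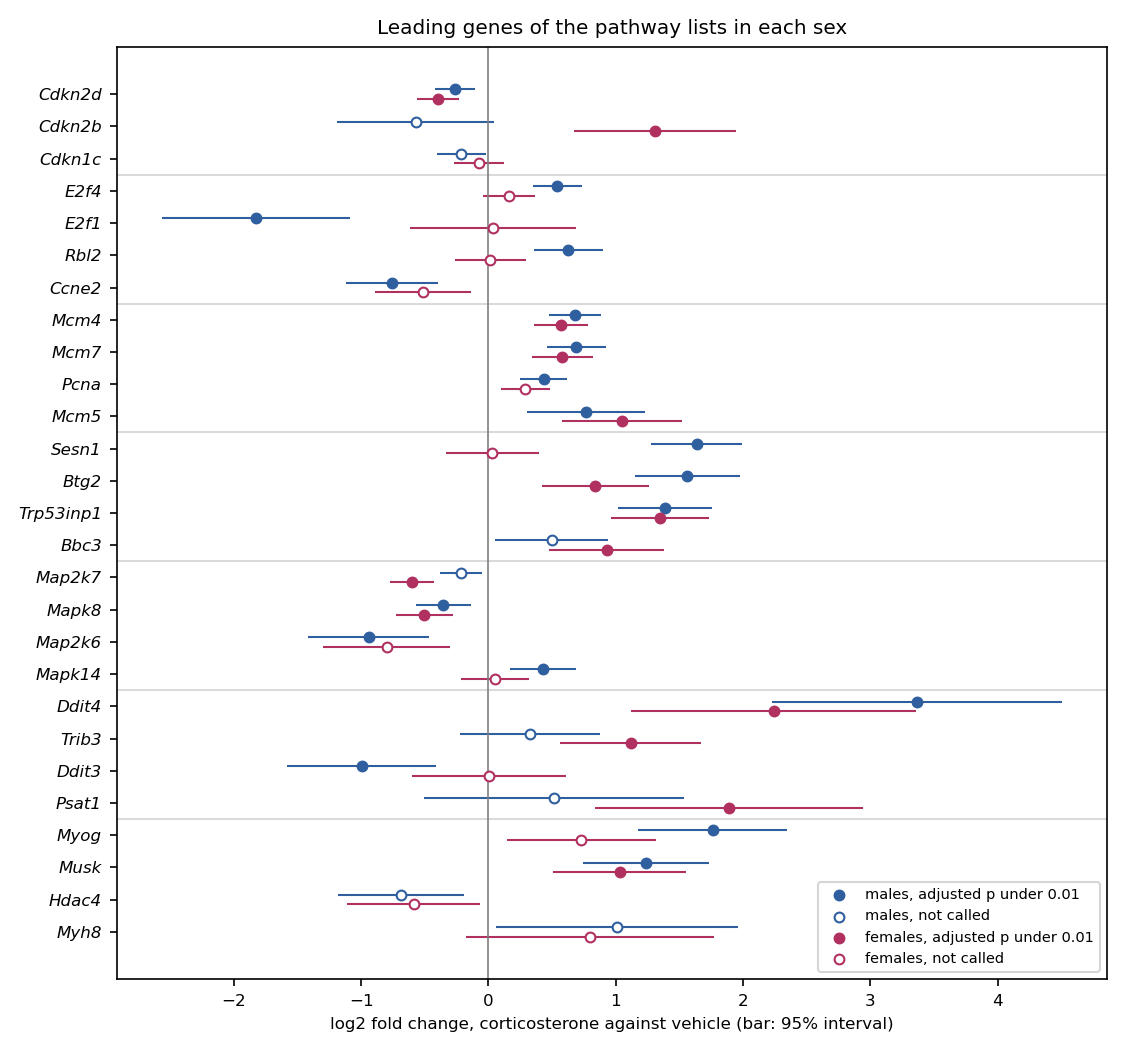
Log2FC of corticosterone against vehicle (horizontal axis) for the leading genes of the 7 pathway lists, from top to bottom CDK inhibitors, G1 and E2F genes, proliferation markers, p53 pathway, stress kinases, ATF4 response and denervation markers, in males (blue) and females (red), with bars for the 95% interval and filled points for an adjusted p under 0.01. Trp53inp1, Mcm4 and Mcm7 lie at nearly the same place in both sexes, and Sesn1 is at 1.64 in males and 0.03 in females.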

How the data were processed

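Quadriceps RNA of 23 mice was enriched for mRNA, made into stranded libraries and sequenced in pairs. Per the labels and the study's methods, the authors aligned read pairs to mm10 with STAR 2.7.3a, counted uniquely assigned pairs by strand with HTSeq 0.12.4 on Ensembl release 97, and deposited raw counts per gene and mouse. Summary entries that name no gene (10.7% to 15.3% of pairs) were left out. Symbols came from GENCODE M21 and matched 55480 gene IDs.

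Counts were tested with edgeR 4.0.16 in R 4.3.3 (quasi-likelihood, TMM, 1 model with 4 group means). Genes were kept where normalized counts exceeded 20 in 4 or more mice of any group, as in the study. Levels are TMM-scaled CPM, with a prior count of 1 for log2 CPM. Alternatives were DESeq2 1.42.0, limma 3.58.1 (voom with quality weights), other filters, scalings and thresholds, each sex alone, a replicate block and omitted mice, of which leaving out F2, F6 and F10 was added after the data were seen. Scripts were checked on simulated counts. The 10 genes and all lists were chosen with earlier results of these data known. Genes named are the 10, the 2 most alike to each of the 10, and up to 4 of each list with the lowest adjusted p in either sex. A further 7 list genes and the satellite cell marker Cdh15 were chosen after their values were seen. No replicates agreed within sampling noise (lowest chi-square per degree of freedom 15.0).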

Additional observations from a re-analysis of the deposited data

Results flagged for a closer look

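Among the 40 groups of mice examined (10 genes in 4 groups), 2 held a mouse far from the others, where chance flags about 1 in 20. Gadd45b was at 25.6 CPM in the vehicle-treated male M9, and the next lowest of that group was at 35.9 CPM. Ccnd2 was at 18.5 CPM in the vehicle-treated male M7, and the next was at 17.1 CPM, in a group that was otherwise tight.

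Gadd45a was flagged because its response differed between males and females by 1.64 on the log2 scale in a test of the interaction (edgeR, adjusted p 0.00830), with 6 of 6 treated males above and 4 of 5 treated females below the vehicle mean of their sex.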

How the results depend on the processing

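Of 1550 values of single genes under alternatives, 1446 kept their direction and side of the threshold, 42 were no longer past it, 30 were newly past it and 32 changed sign. The count of genes called in males was 3 with a limit of 1 on the log2FC or without a filter on low counts (which lost Cdkn1b and Gadd45b), and 3 to 5 with 1 mouse left out. In females it was 1, and 4 at an adjusted p under 0.05, 2 with DESeq2, 5 with limma-voom and 1 to 4 with 1 mouse left out. For the interaction it was 1, and 4 at an adjusted p under 0.05, 2 with DESeq2, median-of-ratios scaling or limma-voom, 0 to 3 with 1 mouse left out, and 0 in edgeR without a filter, without F10 and M8 or without F2, F6 and F10 (6, 5 and 3 genes at an unadjusted p under 0.05). Between vehicle-treated sexes it was 1, and 2 at 0.05 or with DESeq2 and 0 to 2 with 1 mouse left out. Between treated sexes it was 2, and 6 at 0.05, 5 with DESeq2, 4 with limma-voom, 2 to 5 with 1 mouse left out and 0 in edgeR without F2, F6 and F10 (1 at an unadjusted p under 0.05). The median log2FC in females was -0.15 without F2, F6 and F10, and the interaction median ranged from -0.042 to 0.31 with 1 mouse left out. Over all genes, the interaction gave 90 calls, against 896 with DESeq2, 693 with limma-voom, 10 without a filter, 4 without F10 and M8 and 6 without F2, F6 and F10. Between vehicle-treated sexes it gave 125, against 284 with DESeq2, and in females 1748, against 561 with each sex alone. The cause of these changes was not tested.

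Signs changed mostly in values near 0. Cdkn1b in females was -0.0055 with DESeq2, -0.0054 with median-of-ratios scaling, -0.010 with filterByExpr, -0.037 without a filter, -0.014 with each sex alone, -0.0077 without F10 and M8, and -0.12 to 0.089 with 1 mouse left out. With 1 mouse left out, Cdkn2c in males ranged from -0.094 to 0.077, the Gadd45g interaction from -0.45 to 0.29, and in vehicle-treated sexes Cdkn1b from -0.11 to 0.017 and Mdm2 from -0.081 to 0.051. Without F2, F6 and F10, which leaves 2 treated females, Cdkn2c, Ccnd2 and Ccnd3 were -0.38, -0.58 and -0.22 in females. The interactions of Cdkn2c, Gadd45b, Gadd45g, Ccnd2 and Ccnd3 were then 0.36, -0.066, 0.017, 0.057 and 0.25, and treated males against females were 0.61 for Cdkn2c and 0.16 for Ccnd3.

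Replicate numbers are shared only across the sexes, and 7 of 11 pairs of same-numbered mice correlated above 0.1 in their deviations (-0.38 to 0.48). Without a reference for such values, they cannot settle whether the numbers pair the mice. The main fit did not use the numbers. A replicate block gave 1 gene for the interaction, 1 between vehicle-treated sexes and 1 between treated sexes (Ccnd2 at -1.90, adjusted p 0.0229), and turned the Gadd45g interaction to 0.036.

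With 5 or 6 mice a group, a change as small as that of Mdm2 in males (0.12, 95% interval -0.08 to 0.33) was not detectable, and Ccnd1 in M4 rests on 6 read pairs.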
